A study of Mus musculus with 8 samples.

Results

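The genes described here encode the voltage-gated sodium channels, the voltage-gated calcium channels and the HCN channels of cultured mouse hippocampal neurons. Members were the genes whose symbol matched Scn with a number and the letter a or b, Cacna, Cacnb or Cacng, or Hcn with a number, on rows of the table that named a single gene. The rule found 38 genes among the 19938 genes tested, and it used no measured value other than the mean over all arrays, which chose 1 transcript cluster (the probes that the array assigns to 1 gene or transcript) for each of the 4 members with several.

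Hippocampal neurons of the ICR mouse strain, taken from embryos at stage E17.5 and cultured for 10 days, received bicuculline at 50 µM, and their total RNA was hybridised to Affymetrix Mouse Gene ST 1.0 arrays. Bicuculline blocks the GABA-A receptor and so releases the network from inhibition. The 4 groups were cultures exposed to bicuculline for 0 (the reference), 30, 180 or 300 min, with 2 biological replicates each, or 8 arrays. The labels name no culture held without bicuculline to the later times and do not say whether replicates shared a dissection, so the tests measure the spread between these arrays, and time in culture cannot be told apart from bicuculline. Values are deposited signals on a log2 scale, so a difference of 1 is a doubling. The study set gene expression at the 4 times side by side.

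Voltage-gated sodium channels open on depolarisation and carry the upstroke of the action potential. Their alpha subunits form the pore, and their beta subunits tune gating and anchor the channel at the membrane. Calcium channels are built on an alpha1 pore subunit: L-type channels couple activity to transcription, P/Q-, N- and R-type channels trigger transmitter release, and T-type channels open near rest and support burst firing. Auxiliary alpha2delta and beta subunits bring calcium channels to the surface, while most brain gamma subunits, the TARPs, escort AMPA receptors instead. HCN channels open on hyperpolarisation and set resting conductance and rhythm in pyramidal cells.

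Over all 35399 rows of the table, replicates of a time correlated at r = 0.985 to 0.990, and array medians lay between 4.84 and 4.88. Olfactory receptor genes, 1027 in number and taken as silent here, had a 95th percentile of 4.46, which served as the background level. Above it lay 68.2% of all genes and 32 of the 38 members. The other 6 members, Scn7a, Scn9a, Scn10a, Scn11a, Scn4b and Cacna1f, had mean signals under that level, and Cacna1s was just above it at 4.49. All 7 neuronal markers were above background, with list means per array of 9.88 to 9.93 at 0 min, 9.93 to 9.94 at 30 min, 9.75 to 9.87 at 180 min and 9.91 to 9.95 at 300 min. All 4 astrocyte markers were also above it, as were 3 of 4 measured oligodendrocyte-lineage markers, 3 of 4 microglial markers and 2 of 3 endothelial markers. The same held for 3 of 4 muscle markers, so a signal above this level does not show that a cell type was present. The mean signal of the activity-regulated genes Npas4, Fos and Arc was 5.87 to 6.04 at 0 min, 8.79 to 8.82 at 30 min, 6.97 to 7.02 at 180 min and 6.94 to 7.12 at 300 min.

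The 3 members with the smallest p at 180 min against 0 min were Cacna1i, Cacna1d and Scn8a, and the 250 bases before their transcription starts are shown, 5′ to 3′ on the coding strand, to place them beside common activity-related motifs. The sequences come from the RefSeq promoter table of GRCm38.p6, where they span chr15:80286988-80287237 on the plus strand for Cacna1i, chr14:30491157-30491406 on the minus strand for Cacna1d and chr15:100870395-100870644 on the plus strand for Scn8a. Cacna1d and Scn8a each have 2 listed starts, and the most upstream one was used. Capitals mark a match, on either strand, to any of 6 motifs. The full cyclic AMP response element was searched as TGACGTCA, and its half-site, which every full element also holds, as TGACG. The AP-1 motif was TGANTCA and that of the Egr family was GCGNGGGCG. GC boxes were searched as GGGCGG, and the letters TATAAA were used for a TATA box.
Cacna1i: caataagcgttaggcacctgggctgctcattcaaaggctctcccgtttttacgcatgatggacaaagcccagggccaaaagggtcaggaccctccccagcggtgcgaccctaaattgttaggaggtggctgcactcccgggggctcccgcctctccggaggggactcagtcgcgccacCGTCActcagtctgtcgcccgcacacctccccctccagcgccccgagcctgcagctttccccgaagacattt
Cacna1d: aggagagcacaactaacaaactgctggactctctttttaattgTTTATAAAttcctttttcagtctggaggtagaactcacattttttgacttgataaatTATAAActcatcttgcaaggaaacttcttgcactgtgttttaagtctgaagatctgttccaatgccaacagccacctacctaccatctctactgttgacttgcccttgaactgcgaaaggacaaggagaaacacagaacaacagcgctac
Scn8a: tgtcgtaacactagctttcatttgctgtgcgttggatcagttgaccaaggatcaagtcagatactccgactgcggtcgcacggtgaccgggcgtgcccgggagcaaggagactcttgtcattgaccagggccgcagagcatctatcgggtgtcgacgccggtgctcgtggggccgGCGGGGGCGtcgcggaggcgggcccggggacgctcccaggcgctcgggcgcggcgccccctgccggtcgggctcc
The Cacna1i window, with a GC content of 62.4%, held 1 half-site of the cyclic AMP response element and no other match. The Cacna1d window held 3 TATA box matches, of which 2 overlap, at a GC content of 39.6%. The Scn8a window held 1 Egr match at a GC content of 68%. Of 39 windows listed for 29 members, 0 held the full cyclic AMP response element, against 1.55% of all 32851 windows in the table. The half-site was in 6 member windows (15.4%) and 17.8% of all windows. The AP-1 letters were in 1 member window (2.56%) and 6.75% of all, and the TATA box was in 2 (5.13%) and 12.4% of all. Egr letters were in 7 member windows (17.9%) and 4.70% of all, and the GC box was in 16 (41.0%) and 32.7% of all. A match is a run of letters and not a measured binding site.

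Channel transcripts as a group lay slightly lower at 180 min of bicuculline, and nearly every pore-forming calcium channel subunit above background shared that direction. At 180 min both arrays lay below both 0 min arrays in 19 of the 38 members (50%), a pattern that held for 22.6% of all genes. The reverse pattern held for 5 members (13.2%) and 21.1% of all genes. The members' median log2 change was -0.09, with 24 negative and 14 positive values from -0.45 to 0.30, while the median over all genes was -0.0007. With genes under the background level left out, the members' median was -0.21, and the lower pattern held for 59.4% of the 32 members left and 28.7% of the genes left. The median over all genes left is not given here, so -0.21 is not to be set against -0.0007. The count of 19 was 11 (28.9%, against 21.6% of all genes) after quantile normalization and 10 (26.3%, against 21.1%) after the trend with gene length along the genome was removed. In cultures of mixed cells, fewer neurons and less RNA per neuron cannot be told apart. The neuronal marker list at 180 min, given above, also had a lower range than at 0 min, with log2 changes of single markers from -0.27 (Map2) to 0.01 (Nefl). List means of excitatory neuron markers were 8.47 to 8.48 at 180 min and 8.51 to 8.52 at 0 min. Single excitatory markers went both ways at 180 min, with log2 changes from -0.33 (Neurod6) to 0.36 (Slc17a6). List means of inhibitory neuron markers were higher at 180 min, at 8.05 to 8.09 against 7.98 to 7.99. The part of these lists in the channel gene differences was not tested.

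By limma with Benjamini-Hochberg adjustment over all genes at a threshold of 0.05, 0 members were called at 180 min against 0 min, where 0.331% of genes were called. At an unadjusted p under 0.05 in limma, 10 members differed (9 lower, 1 higher), which is to be set beside 12.8% of all genes. At 300 min 0 members were called, against 0.286% of genes, and 4 members (3 lower, 1 higher) had an unadjusted limma p under 0.05, against 8.96% of all genes. Both 300 min arrays were below both 0 min arrays in 11 members (28.9%; all genes 19.6%) and above them in 6 (15.8%; all genes 18.8%). The members' median log2 change at 300 min was -0.06. These comparisons share the 0 min arrays. When the 180 and 300 min arrays (late) were set together against the 0 and 30 min arrays (early), 1 member was called, Cacna1i, which is 2.63% of the members, and 2.22% of all genes were called. All 4 later arrays lay below all 4 earlier arrays in 8 members (21.1%; all genes 5.36%): Cacna1c, Cacna1d, Cacna1i, Cacna2d2, Cacng3, Hcn4, Scn3a and Scn3b. That count was 4 after quantile normalization and 4 with the length trend removed (10.5% both times, against 5.30% and 4.37% of all genes). The reverse held for Cacna1f alone, or 2.63% of members, and 3.47% of all genes. The limma F test over the 4 times called 0 members and 0.813% of genes, and 5 members (Cacna1d, Cacna1e, Cacna1i, Cacnb2 and Scn8a) had an unadjusted p under 0.05, against 11% of all genes.

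**Figure D1:**
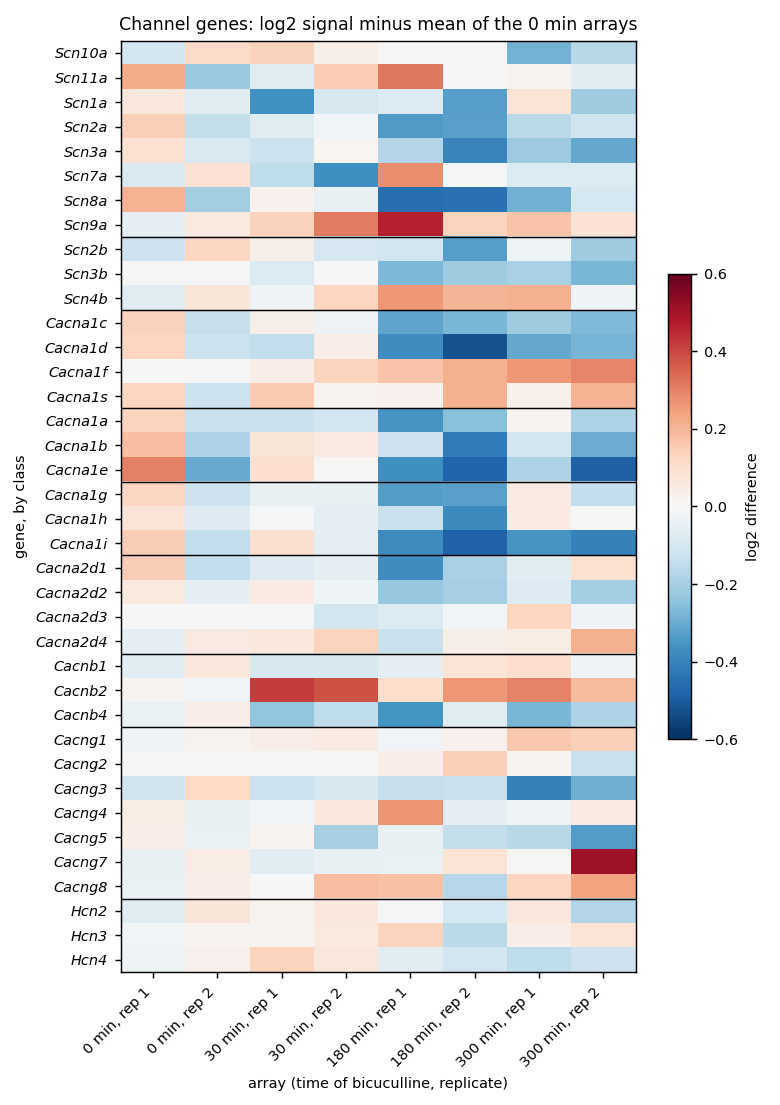
Log2 signal of the 38 channel genes on each of the 8 arrays, minus the gene's mean at 0 min, with genes in rows grouped by class and arrays in columns ordered by time. Colour gives the difference in log2 units, and the 180 min columns are mostly on the lower side for the calcium alpha1 genes.

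Sodium channel alpha genes gave a median log2 change of -0.10 at 180 min and -0.11 at 300 min over 8 genes. Both 180 min arrays were below both 0 min arrays in 4 of the 8, namely Scn2a, Scn3a, Scn8a and Scn1a, and above them in 1, Scn9a, which was under the background level (all genes 22.6% and 21.1%). None was called by limma in any comparison. Scn8a, which encodes Nav1.6, the main channel of the mature axon initial segment and nodes, had signals of 7.33 and 6.91 at 0 min, 7.14 and 7.07 at 30 min, 6.67 and 6.67 at 180 min, and 6.83 and 7.01 at 300 min. Both 180 min arrays lay below all others, while 300 min arrays overlapped those at 0 min. The log2 change at 180 min was -0.45 ± 0.14 (SE; 95% interval -0.75 to -0.15; limma adjusted p = 0.21). At 300 min it was -0.20.

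Scn2a encodes Nav1.2, the channel of young axons and of the proximal initial segment, and its signals were 9.42 and 9.13 at 0 min, 9.20 and 9.26 at 30 min, 8.94 and 8.95 at 180 min, and 9.11 and 9.15 at 300 min. Here too the 180 min arrays were the lowest, with a log2 change of -0.33 ± 0.13 (SE; limma adjusted p = 0.287). The array measures Scn2a in 14 transcript clusters, all above background, with means from 6.58 to 9.14. Both 180 min arrays lay under both 0 min arrays in all 14, with log2 changes from -0.60 to -0.30 and a median of -0.40. At 300 min all 14 changes were negative, with a median of -0.20. These clusters are probes of the same gene on the same arrays and are not replicates.

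**Figure D2:**
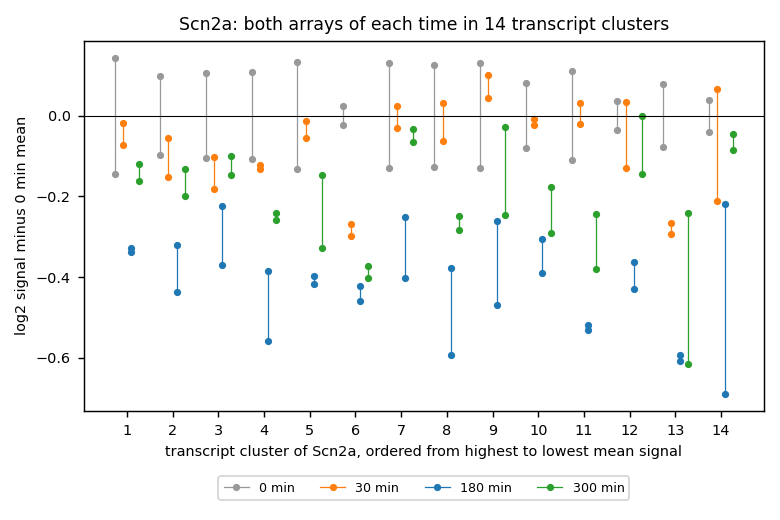
Log2 signal minus the 0 min mean of the cluster for each of the 14 Scn2a transcript clusters, with both arrays of each time shown as points. All 180 min points lie below the 0 min arrays of their cluster, with mean changes from -0.60 to -0.30.

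Scn3a, which encodes the embryonic Nav1.3, had 180 min signals of 6.49 and 6.27 against 6.75 and 6.57 at 0 min, a log2 change of -0.29. At 300 min its signals were 6.44 and 6.35 and the change was -0.26, so all 4 late arrays lay below the 4 early ones. Scn1a, the Nav1.1 gene linked to firing of inhibitory neurons, had signals of 5.44 and 5.30 at 0 min and 5.29 and 5.04 at 180 min, and its 300 min signals of 5.45 and 5.15 overlapped those at 0 min. The genes of sensory neurons and of the sodium sensor Nax were dim. Scn7a (Nax) had signals of 3.97 and 4.14 at 0 min, 3.90 and 3.69 at 30 min, 4.33 and 4.05 at 180 min, and 3.97 and 3.97 at 300 min. Its change at 30 min was -0.26 (limma adjusted p = 0.957). Scn9a (Nav1.7) had 3.64 and 3.76 at 0 min, 3.84 and 4.01 at 30 min, 4.17 and 3.83 at 180 min, and 3.87 and 3.79 at 300 min. At 30 min the change was 0.23 (limma adjusted p = 0.965) and at 180 min 0.30 (adjusted p = 0.38). The other cluster of Scn9a gave -0.07 at 180 min, so its clusters differ in sign. Scn10a ranged from 3.82 to 4.24 and Scn11a from 3.69 to 4.23 over the arrays.

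Among the 3 sodium beta genes only Scn3b had late arrays apart from early ones. Scn3b, an immunoglobulin-fold beta subunit, had signals of 8.33 and 8.31 at 0 min, 8.23 and 8.32 at 30 min, 8.05 and 8.10 at 180 min, and 8.12 and 8.05 at 300 min. All 4 late arrays were below all 4 early arrays, with a log2 change at 180 min of -0.24 ± 0.12 (SE; limma adjusted p = 0.40) and late against early of -0.22 (adjusted p = 0.219). Scn2b, a disulphide-linked beta subunit, had 7.09 and 7.34 at 0 min and 7.10 and 6.88 at 180 min, which overlap. Scn4b was under the background level, from 3.92 to 4.25, and its change at 180 min was 0.23.

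Among the calcium channel alpha1 genes, only Cacna1i was called late against early, where 2.22% of all genes were called. Its log2 change was -0.42, and the call was lost under 9 of 16 alternatives. Both 180 min arrays lay below both 0 min arrays in 7 of the 10 alpha1 genes, against 22.6% of all genes and 38.2% of all genes over 100 kb. Those 7 were Cacna1a, Cacna1c, Cacna1d, Cacna1e, Cacna1g, Cacna1h and Cacna1i. Cacna1b overlapped, and the other two, the retinal Cacna1f and the skeletal muscle Cacna1s, were at or under the background level.

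Of the L-type genes, Cacna1c (Cav1.2) and Cacna1d (Cav1.3) are the neuronal ones. Cacna1d had signals of 6.09 and 5.84 at 0 min, 5.82 and 6.0 at 30 min, 5.59 and 5.44 at 180 min, and 5.66 and 5.69 at 300 min. Its late and early arrays did not overlap. The log2 change was -0.45 ± 0.13 (SE; limma adjusted p = 0.182) at 180 min and -0.29 (adjusted p = 0.527) at 300 min. Late against early it was -0.34 ± 0.09 (SE; limma adjusted p = 0.0739). The limma adjusted p was 0.0439 when genes under background were left out before adjustment, the only 1 of 16 alternatives to pass the threshold. Over all alternatives the late change of Cacna1d ranged from -0.41 to -0.25. Cacna1c had 6.85 and 6.56 at 0 min, 6.74 and 6.68 at 30 min, 6.39 and 6.43 at 180 min, and 6.49 and 6.44 at 300 min. Its late arrays were again all below the early ones, with changes of -0.29 ± 0.13 (SE; limma adjusted p = 0.345) at 180 min and -0.24 at 300 min. Cacna1f had 3.82 and 3.82 at 0 min, 3.85 and 3.95 at 30 min, 3.99 and 4.03 at 180 min, and 4.08 and 4.11 at 300 min. These dim signals were higher late, without overlap, and the log2 change at 300 min was 0.28 ± 0.11 (SE; limma adjusted p = 0.48). Cacna1s ranged from 4.28 to 4.62, and its times overlapped.

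The P/Q-, N- and R-type genes had a median log2 change of -0.30 at 180 min and -0.21 at 300 min. Cacna1e, the R-type pore, had signals of 7.89 and 7.28 at 0 min, 7.68 and 7.59 at 30 min, 7.22 and 7.11 at 180 min, and 7.40 and 7.09 at 300 min. The 0 min replicates lay further apart than any difference between times, and only at 180 min were both arrays below both of them. Its change was -0.42 ± 0.17 (SE; limma adjusted p = 0.323) at 180 min and -0.41 ± 0.12 (adjusted p = 0.109) late against early. With single arrays left out the late change ranged from -0.56, without 0 min replicate 2, to -0.26, without 0 min replicate 1. Cacna1b, the N-type pore of presynaptic terminals, had 8.46 and 8.09 at 0 min, 8.34 and 8.32 at 30 min, 8.15 and 7.85 at 180 min, and 8.16 and 7.97 at 300 min. Its 180 min arrays overlapped those at 0 min, and the change was -0.27 ± 0.15 (SE; limma adjusted p = 0.467). Cacna1a, the P/Q-type pore, had 7.83 and 7.56 at 0 min, 7.34 and 7.45 at 180 min, and 7.71 and 7.51 at 300 min. It was lower without overlap at 180 min, by a log2 change of -0.30 (limma adjusted p = 0.352), and overlapped 0 min again at 300 min, where the change was -0.09.

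All 3 T-type genes had both 180 min arrays below both 0 min arrays (all genes 22.6%), with a median log2 change of -0.33, and the class median at 300 min was -0.05. Cacna1i (Cav3.3) had signals of 6.75 and 6.45 at 0 min, 6.70 and 6.55 at 30 min, 6.22 and 6.11 at 180 min, and 6.25 and 6.20 at 300 min. Every late array was below every early array. Late against early the log2 change was -0.42 ± 0.09 (SE; 95% interval -0.61 to -0.22), or 1.33-fold lower, with a limma adjusted p of 0.0306. Against 0 min alone it was -0.43 ± 0.13 at 180 min (95% interval -0.71 to -0.15; limma adjusted p = 0.192) and -0.38 ± 0.13 at 300 min (adjusted p = 0.354). The late call was lost when every row of the table was tested (limma adjusted p = 0.182), with the length trend removed (-0.36; adjusted p = 0.0628), and without any of 7 single arrays. It was kept without 0 min replicate 2. Over all alternatives the change ranged from -0.49 to -0.34.

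Cacna1g (Cav3.1) had signals of 6.69 and 6.44 at 0 min, 6.52 and 6.52 at 30 min, 6.23 and 6.24 at 180 min, and 6.61 and 6.42 at 300 min. Its low signals were at 180 min alone, with a change of -0.33 there and -0.05 at 300 min. Cacna1h (Cav3.2) had 6.88 and 6.72 at 0 min, 6.79 and 6.74 at 30 min, 6.66 and 6.42 at 180 min, and 6.85 and 6.79 at 300 min. It followed the same order, with -0.26 ± 0.13 (SE; limma adjusted p = 0.414) at 180 min and 0.02 at 300 min. Whether the T-type genes differed from each other in their course was not tested.

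**Figure D3:**
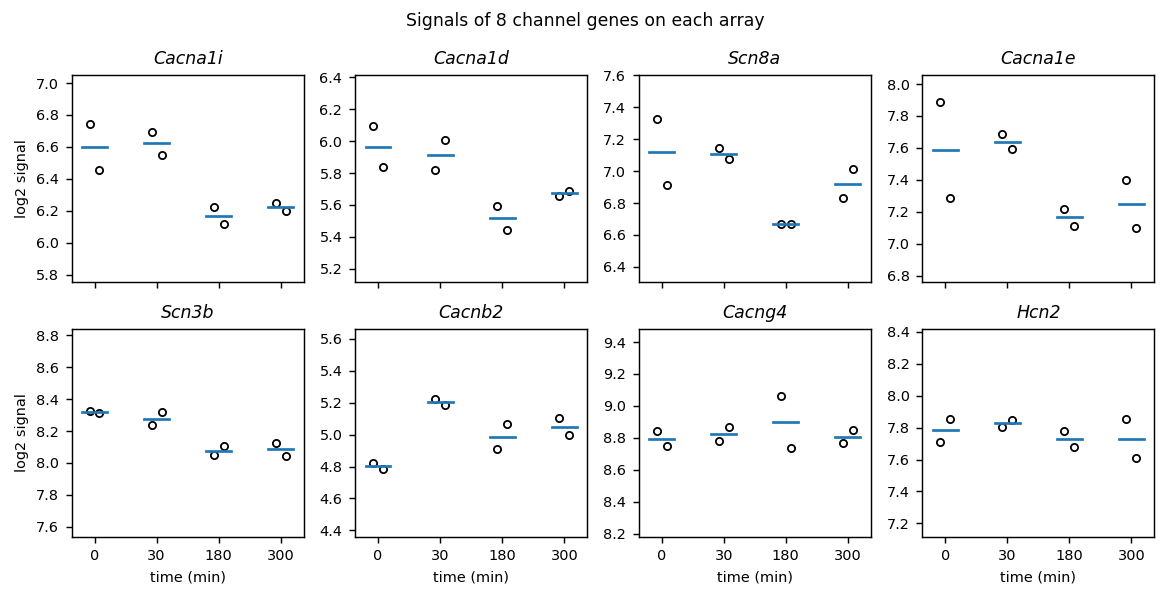
Log2 signal of 8 channel genes on each array at 0, 30, 180 and 300 min, with circles for arrays and bars for the mean of the 2 arrays. Cacna1i, Cacna1d and Scn3b have every late array below every early array, while Cacng4 and Hcn2 overlap between times.

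Auxiliary calcium channel subunits were divided by class. The alpha2delta genes, whose products raise surface expression of calcium channels, had a median log2 change of -0.13 at 180 min and 0.03 at 300 min. Cacna2d1 had 7.91 and 7.61 at 0 min, 7.39 and 7.56 at 180 min, and 7.69 and 7.85 at 300 min. The low signals at 180 min, a change of -0.28, were matched by -0.25 in its other cluster, and the 300 min arrays were back among those of 0 min. Cacna2d2 had 6.23 and 6.11 at 0 min, 6.22 and 6.14 at 30 min, 5.94 and 5.97 at 180 min, and 6.09 and 5.97 at 300 min, so its late arrays all lay below its early ones. Cacna2d3 had 8.17 and 8.17 at 0 min, 8.16 and 8.06 at 30 min, 8.09 and 8.16 at 180 min, and 8.30 and 8.15 at 300 min. The change at 180 min was -0.05 ± 0.12 (SE; limma adjusted p = 0.897), and its sign turned after quantile normalization and with the length trend removed. Cacna2d4 ranged from 4.65 to 5.0, close to background, with a change of -0.05 at 180 min.

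The calcium beta genes, whose products fold the channel and modulate its gating, had a median log2 change of 0.01 at 180 min. Cacnb2 had the smallest p at 30 min of all members, with signals of 4.82 and 4.79 at 0 min, 5.22 and 5.19 at 30 min, 4.91 and 5.07 at 180 min, and 5.10 and 5.0 at 300 min. Both arrays at each later time lay above both at 0 min, and the 30 min arrays were the highest. The change at 30 min was 0.40 ± 0.12 (SE; 95% interval 0.15 to 0.65), which did not pass the threshold (limma adjusted p = 0.714). Cacnb4 had 7.29 and 7.37 at 0 min, 7.09 and 7.17 at 30 min, 6.97 and 7.25 at 180 min, and 7.05 and 7.14 at 300 min. Each later array was below both 0 min arrays, and the change at 180 min was -0.22 ± 0.13 (SE; limma adjusted p = 0.511). Cacnb1 stayed between 6.91 and 7.10 on all arrays.

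The gamma and TARP genes had a median log2 change of 0.005 at 180 min and 0.01 at 300 min over 7 genes. Cacng3, a TARP of cortical and hippocampal pyramidal cells, had 7.56 and 7.80 at 0 min, 7.55 and 7.59 at 30 min, 7.55 and 7.55 at 180 min, and 7.28 and 7.39 at 300 min. The 180 min arrays were under the lower 30 min array by less than the rounding shows. Its lowest arrays were those at 300 min, where the change was -0.35 ± 0.12 (SE; limma adjusted p = 0.376). Cacng4, another TARP, had 8.84 and 8.75 at 0 min, 8.78 and 8.87 at 30 min, 9.06 and 8.74 at 180 min, and 8.77 and 8.85 at 300 min. All times overlapped, with a change at 180 min of 0.10 ± 0.13 (SE; limma adjusted p = 0.784). Cacng2, the stargazin gene, ranged from 7.11 to 7.39, and its 2 clusters gave 0.09 and -0.10 at 180 min. Cacng8 ranged from 7.66 to 8.08 with a change at 180 min of 0.00. Cacng7 had 8.61 and 9.11 at 300 min against 8.56 and 8.65 at 0 min, so its change of 0.26 rests on 1 array. Cacng5 gave -0.25 at 300 min, and Cacng1, the skeletal muscle gamma subunit, ranged from 5.37 to 5.55.

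The 3 HCN genes had a median log2 change of -0.06 at 180 min and -0.05 at 300 min. Hcn2, a main HCN gene of the forebrain, had 7.71 and 7.86 at 0 min, 7.81 and 7.85 at 30 min, 7.78 and 7.68 at 180 min, and 7.85 and 7.61 at 300 min. All times overlapped, and the change at 180 min was -0.06 ± 0.13 (SE; 95% interval -0.33 to 0.21; limma adjusted p = 0.887). That interval allows a difference of the size seen for Cacna2d1 or Scn3a, so it does not show that Hcn2 stayed level. Hcn3 gave -0.01 at 180 min, with a 95% interval of -0.29 to 0.26. Hcn4, the slow HCN subunit best known from the cardiac pacemaker, had 6.59 and 6.64 at 0 min, 6.75 and 6.68 at 30 min, 6.56 and 6.50 at 180 min, and 6.46 and 6.49 at 300 min. Its late arrays all lay below the early ones, by a log2 change of -0.16 (limma adjusted p = 0.387).

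**Figure D4:**
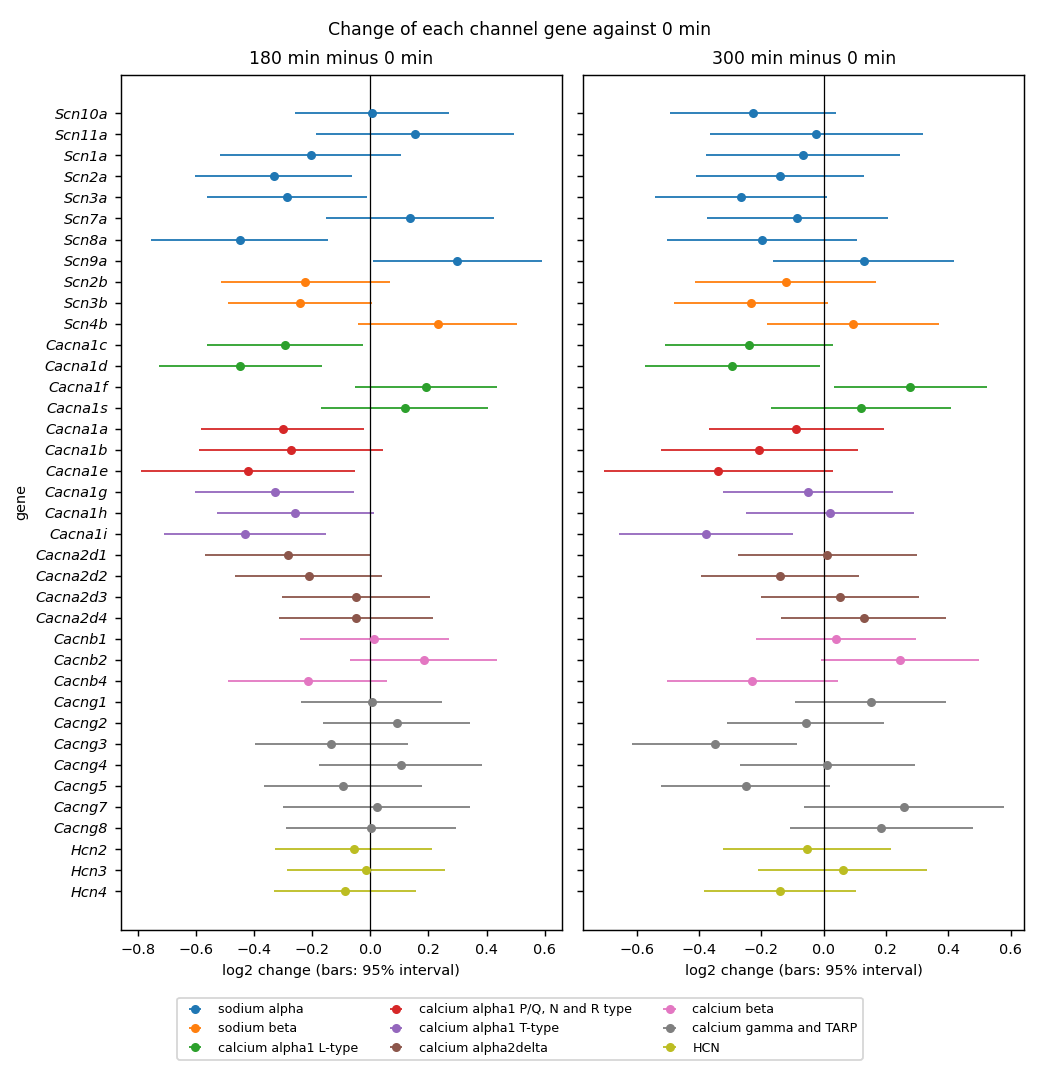
Log2 change against 0 min at 180 min and at 300 min for the 38 channel genes, grouped by class, with 95% intervals from the limma fit. At 180 min the values run from -0.45 to 0.30 and most calcium alpha1 genes lie below 0.

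At 30 min, when the activity-regulated genes had their highest signals, the members' median log2 change was 0.001, with values from -0.26 (Scn7a) to 0.40 (Cacnb2). Limma called 0 members and 0.0953% of all genes, and 1 member, Cacnb2, had an unadjusted p under 0.05, against 5.11% of all genes. Both 30 min arrays lay below both 0 min arrays in 5 members (13.2%; all genes 18.3%) and above them in 6 (15.8%; all genes 19.2%). From 30 to 180 min the median change was -0.09. Limma called 0 members there and 0.502% of genes, and 9 members (8 lower, 1 higher) had an unadjusted p under 0.05, against 10.5% of all genes. From 180 to 300 min 27 of 38 members had a positive change, with a median of 0.06. Limma called 0 members and 0% of genes in that step, and 3 members, all higher, had an unadjusted p under 0.05, against 5.72% of all genes. They were Cacna1g, Cacna1h and Cacna2d1.

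The channel genes are long, with a median span of 111 kb on the genome against 17.7 kb over all genes with a span. Longer genes had lower values at 180 min throughout the table: the median log2 change was 0.03 for 10560 genes under 20 kb, -0.03 for 6999 genes of 20 to 100 kb, and -0.09 for 2294 genes over 100 kb. Of the 20 members over 100 kb, 13 had both 180 min arrays below both 0 min arrays and their median was -0.24, while 38.2% of all genes in that class had the pattern. The 13 members of 20 to 100 kb had a median of 0.003 with 6 such genes (all genes of that length, 29%), and the 5 shorter members had a median of -0.01 with 0 such genes (14.9%). Late against early, 5 of the 20 long members and 13.4% of all long genes had every late array lower. Removing the running median over gene length left a members' median of -0.05 at 180 min. The part of gene length in the single genes' values was not tested further.

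**Figure D5:**
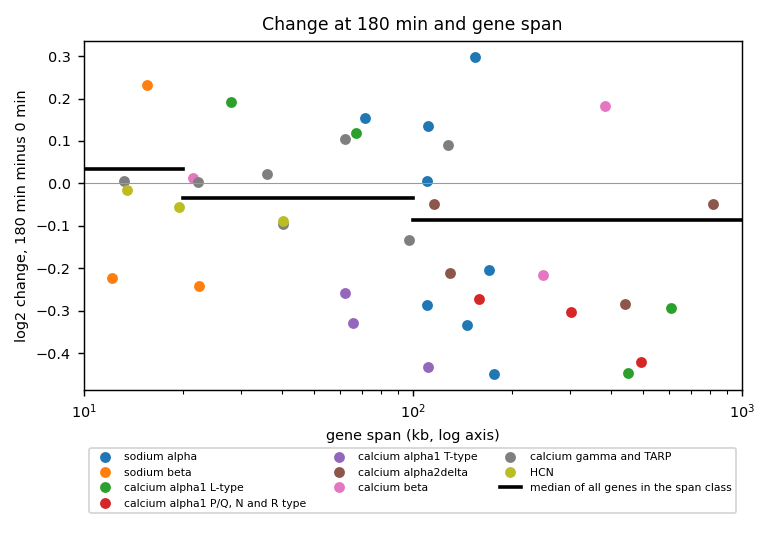
Log2 change at 180 min against 0 min plotted over gene span in kb on a log axis for the channel genes, with black lines for the median of all genes in each span class. Members over 100 kb have a median of -0.24, and the line of all genes over 100 kb is at -0.09.

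Partners of these channels were read from a list of 28 genes, of which 25 were measured: anchors, cytosolic regulators, calmodulins and genes of the NALCN leak channel. Limma called 0 of the 25 at 30, 180 or 300 min against 0 min. Late against early it called 1 lower, Ank2, and 1 higher, Stac, and 23 did not pass, where 2.22% of all genes were called. Ank2 encodes ankyrin-B, a spectrin-linked adaptor of axonal membrane proteins. Its signals were 9.09 and 8.69 at 0 min, 9.15 and 8.99 at 30 min, 8.41 and 8.41 at 180 min, and 8.55 and 8.40 at 300 min. The late arrays all lay below the early ones, with a log2 change of -0.54 ± 0.10 (SE; limma adjusted p = 0.0116), lost without 0 min replicate 1 (adjusted p = 0.0636), without 30 min replicate 1 (adjusted p = 0.0815) or with every row tested (adjusted p = 0.152). Stac, a small adaptor protein that binds L-type calcium channels, had 5.02 and 5.38 at 0 min, 5.0 and 5.10 at 30 min, 5.31 and 6.16 at 180 min, and 6.20 and 5.59 at 300 min. One 180 min array lay within the 0 min range, and the late change was 0.69 ± 0.17 (SE; limma adjusted p = 0.0482), a call lost under 9 alternatives, with an adjusted p of up to 0.295.

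Stac2, its relative, had 5.57 and 5.70 at 0 min, 5.95 and 5.65 at 30 min, 5.95 and 6.13 at 180 min, and 6.19 and 6.08 at 300 min. Both late times were above 0 min without overlap, by 0.40 ± 0.14 (SE; limma adjusted p = 0.233) at 180 min and 0.50 ± 0.14 (adjusted p = 0.198) at 300 min. Ank3 encodes ankyrin-G, which holds sodium channels at the axon initial segment, and its signals were 7.97 and 7.39 at 0 min, 7.74 and 7.78 at 30 min, 7.14 and 7.32 at 180 min, and 7.39 and 7.36 at 300 min. Its late change was -0.42 (limma adjusted p = 0.0742), and as with Cacna1e the 0 min replicates lay far apart. The median log2 change of the 25 partners was -0.11 at 180 min and -0.04 at 300 min.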

How the data were processed

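Affymetrix Mouse Gene ST 1.0 signals were used as deposited by the authors, on a log2 scale; the base was taken from the values (1.22 to 14.96, below 16 bits). How the authors corrected background, normalized and summarised probes, and on which build, is not given in the sources used here. Of 35399 rows, 21789 named 1 gene; 54 rows named a channel gene, and 3 rows naming several were left out. All 38 members matched RefSeq (GRCm38.p6) by gene number. A gene was represented by its cluster with the highest mean, which gave 19938 genes without a filter on dim signals.

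limma 3.58.1 in R 4.3.3 fitted 1 mean per time to all 8 arrays (lmFit, eBayes; prior degrees of freedom 10.1, residual 4), two-sided, with Benjamini-Hochberg adjustment over all genes at 0.05. The scripts were tested on simulated data. SE is limma's moderated standard error. The number of arrays limits the precision. Members and lists were chosen with earlier results of these data known. Values on every array are given for called members, the 3 with the smallest p at 30, 180 and 300 min and late against early, and the brightest member of each class; others were added after their values were seen. Among the partners, those called and the 3 with the smallest p at 180 and 300 min are named. Replicate-1 deviations correlated between times at r = -0.0941 to 0.0922, so replicate numbers were not taken to pair arrays. The alternatives were normalization, centring, cluster choice, dim genes, gene span, variance model, replicate block and leaving out arrays.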

Additional observations from a re-analysis of the deposited data

How the results depend on the processing

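Of 485 values for 29 results on single genes under the alternatives, 457 kept direction and side of the threshold, 21 lost the call, 2 gained it and 5 changed sign. Sign changes were Cacna2d3 at 180 min with the span trend removed (0.098) and after quantile normalization (0.012), Hcn2 at 180 min after quantile normalization (0.015) and with single arrays left out (-0.13 to 0.015), and Cacng4 at 180 min with single arrays left out (-0.057 to 0.27). Channel genes called late against early numbered 2 with dim genes left out, 0 with every row tested, 0 with the span trend removed, and 0 to 3 with single arrays left out: 3 without 0 min replicate 2 and 0 without each other array. Late against early the main fit called 1 member (2.63%) and 442 of all genes (2.22%), and all genes called numbered 40 to 614 over the alternatives. Counts of members with every later array lower were an alternative chosen after seeing the data. They were 10 (span trend removed) and 11 (quantile) at 180 min, and 4 and 4 late against early. With single arrays left out they were 20 to 25 at 180 min, where 34% to 39.6% of all genes had the pattern. At 300 min they were 13 to 20 (all genes 33.4% to 36.4%), and late 8 to 12 (all genes 6.5% to 8.44%). Leaving out an array made the pattern more frequent over all genes too. Without 300 min replicate 2 the members' share at 300 min was 34.2%, against 36.4% of all genes. The members' median change with dim genes left out was -0.21 at 180 min and -0.18 from 30 to 180 min; with single arrays left out it was -0.049 to 0.043 at 30 min, -0.12 to 0.0029 at 300 min (0.0029 without 0 min replicate 1) and 0.010 to 0.084 from 180 to 300 min.

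Genes called in all numbered, at 180 min, 102 with dim genes left out, 1 with every row tested, 41 with the span trend removed, 108 with a trended robust variance and 19 with only the arrays compared; at 300 min 99, 5 and 91 (dim, every row, trended); from 30 to 180 min 9, 156 and 55 (every row, trended, arrays compared); in the F test 13 and 255 (every row, trended); and late against early 40 (every row). With single arrays left out the counts were 12 to 21 at 30 min, 15 to 68 at 180 min, 17 to 61 at 300 min, 17 to 93 from 30 to 180 min, 0 to 14 from 180 to 300 min, 49 to 171 in the F test and 154 to 372 late. With the replicate block, 1 channel gene was called late against early and 442 genes in all, and it moved the count of all genes called from 66 to 53 at 180 min and from 100 to 87 between 30 and 180 min; none of the 29 results on single genes changed its call. A fit to the compared arrays alone gives no separate value for late against early or the F test. With 2 arrays per time, members with no call may still differ.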
